A study of Mus musculus with 12 samples.

Results

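The inflammatory caspases *Casp1*, *Casp4* and *Casp12*, the pore-forming substrate *Gsdmd*, the initiator caspase *Casp8*, the nucleic acid sensor *Zbp1*, the kinases *Ripk1* and *Ripk3* and the necroptosis effector *Mlkl* were followed across 3 cultures of mouse pancreatic stellate cells (PSCs). They are 9 of the 39179 genes of the count table and were found by symbol. The 9 genes were chosen by their functions and with their measured levels in these libraries already known, among them the high levels of *Casp4* and *Zbp1*, so their values are given as a description. No p-value is printed for a single one of them, and whether one passed the threshold of the fit over all genes is stated without anything being read from it. In short, *Zbp1* and *Casp4* had levels in PSCs cultured with tumour cells and macrophages that were over 10 times those in either other culture. *Mlkl* had smaller differences from both, and *Gsdmd* lay above both without passing the threshold of the fit. *Casp12* was at 2.04 times its level in PSCs alone but overlapped PSCs with tumour cells only. *Ripk3* overlapped PSCs alone and lay below PSCs with tumour cells only, without passing the threshold. *Casp8* and *Ripk1* overlapped across cultures, and *Casp1* was at or near 0 counts throughout.

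Inflammatory caspases act in the cytosol. Caspase-1 is recruited to inflammasomes and matures interleukin precursors, the product of mouse *Casp4* binds bacterial lipopolysaccharide directly, and both cleave gasdermin D, whose fragment opens pores in the plasma membrane in a lytic death called pyroptosis. ZBP1 binds left-handed (Z-form) nucleic acid and recruits RIPK3 through a shared protein motif, the RHIM. RIPK3 then phosphorylates MLKL, which breaks the membrane in necroptosis, while RIPK1 and caspase-8 form the complex that decides between survival, apoptosis and necroptosis. *Zbp1*, *Casp4* and *Mlkl* are known as genes that interferons can induce. RNA levels do not report cleavage, phosphorylation or cell death.

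mCherry-labelled PSCs spent 72 h in mono-culture (mono-PSCs), in co-culture with EGFP-labelled pancreatic cancer cells (PCCs; 2W-PSCs), or in co-culture with the same PCCs plus TagBFP-labelled macrophages (MØs) of the RAW264.7 line (3W-PSCs), and were sorted as cells positive for mCherry before RNA extraction. By the study's description, the gate also left out cells with EGFP or TagBFP, which would remove labelled PCCs and MØs. The labels give C57BL/6 as the strain, and the study describes the PSCs as 1 immortalised clone. All 3 cultures were kept in a low-serum medium, so no culture is free of that condition. Each culture gave 4 libraries, 12 in all, which the series design calls biological replicates without saying how they were separated. No culture of PSCs with MØs but without PCCs is among the libraries, so the addition of MØs is measured only on top of PCCs. By the study's methods every culture had the same total cell number, so added cell types took the place of others. The number of each cell type is not given in the text of the methods, and its part in the levels was not tested.

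The libraries were made with a QuantSeq 3′ kit, which yields about 1 fragment per transcript near its poly(A) end, and levels are given as CPM (counts relative to library size) after TMM scaling over the 12 libraries. The mono-PSC libraries held 5286963 to 8093368 counts, the 2W-PSC libraries 4561817 to 6907711 and the 3W-PSC libraries 7205488 to 8061367. 2W-PSC replicate 2 stood apart, with Spearman correlations of 0.858 to 0.920 with the other 2W-PSC libraries. The fibroblast genes *Col1a1*, *Vim*, *Pdgfrb* and *Thy1* were present in all libraries. For 3W-PSCs against 2W-PSCs, 4 of 8 fitted fibroblast markers were called lower (*Col3a1*, log2 -1.74, *Dcn*, *Col1a1* and *Thy1*) and 1 higher (*Pdgfra*, 1.26). Of all genes fitted, 4.95% were called lower and 5.73% higher. The part of the fibroblast marker differences in the levels below was not tested. The stellate marker *Des* did not exceed 3.32 CPM and *Lum* did not exceed 1.39 CPM. The summed level of 12 macrophage markers lay between 2.43 and 8.52 CPM (mono-PSCs), between 4.15 and 11.8 CPM (2W-PSCs) and between 13.0 and 52.5 CPM (3W-PSCs). Of these markers, *Ptprc*, *Tyrobp*, *Spi1* and *Laptm5* had 0 counts in every mono-PSC and 2W-PSC library. Others were counted in cultures without MØs. *Lyz2* reached 4.96 CPM in mono-PSCs, and *Coro1a* had means of 1.57 CPM in mono-PSCs and 1.62 CPM in 3W-PSCs. *Csf1r* was at 0.140 to 6.88 CPM in 2W-PSCs and 1.95 to 3.13 CPM in 3W-PSCs. The summed level of 10 epithelial markers was 0.481 to 2.43 CPM, 73.5 to 144 CPM and 49.6 to 88.5 CPM in the same order, almost all of it keratins and *Cdh1*, with *Epcam*, *Cldn4*, *Cldn7*, *Esrp1* and *Grhl2* at 3 counts or fewer. In sorted bulk RNA, a lower level per cell and a smaller share of cells carrying a transcript cannot be told apart.

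*Casp1*, *Casp4* and *Casp12* lie side by side on mouse chromosome 9 (GRCm38, GENCODE annotation, all on the plus strand). *Casp1* (ENSMUSG00000025888) spans chr9:5298517-5307265, *Casp4* (ENSMUSG00000033538) spans chr9:5308828-5336783 and *Casp12* (ENSMUSG00000025887) spans chr9:5345430-5373032. The gap between *Casp1* and *Casp4* is 1562 bases, that between *Casp4* and *Casp12* is 8646 bases, and the cluster spans 74516 bases from the start of *Casp1* to the end of *Casp12*. These neighbours had very different levels in the same libraries, so the sequence around their starts is shown first. Each is the reference sequence of RefSeq (GRCm38.p6) from 250 bases before to 50 bases after the annotated start, 5′ to 3′ on the gene's strand. Capitals mark matches to the motifs searched. The windows are chr9:5298267-5298566 for *Casp1*, chr9:5308599-5308898 for the first of the *Casp4* starts and chr9:5345226-5345525 for *Casp12*.
Casp1: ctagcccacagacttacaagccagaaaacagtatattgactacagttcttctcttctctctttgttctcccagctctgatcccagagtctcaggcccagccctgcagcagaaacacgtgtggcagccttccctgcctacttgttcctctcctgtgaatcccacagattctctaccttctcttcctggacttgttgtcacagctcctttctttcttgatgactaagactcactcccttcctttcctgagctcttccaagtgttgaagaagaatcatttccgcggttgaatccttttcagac
Casp4: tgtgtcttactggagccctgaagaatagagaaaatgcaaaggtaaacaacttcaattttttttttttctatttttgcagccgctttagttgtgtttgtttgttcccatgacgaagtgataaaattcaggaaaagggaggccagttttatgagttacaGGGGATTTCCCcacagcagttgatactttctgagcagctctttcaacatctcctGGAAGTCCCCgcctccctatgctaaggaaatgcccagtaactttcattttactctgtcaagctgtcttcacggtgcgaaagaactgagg
Casp12: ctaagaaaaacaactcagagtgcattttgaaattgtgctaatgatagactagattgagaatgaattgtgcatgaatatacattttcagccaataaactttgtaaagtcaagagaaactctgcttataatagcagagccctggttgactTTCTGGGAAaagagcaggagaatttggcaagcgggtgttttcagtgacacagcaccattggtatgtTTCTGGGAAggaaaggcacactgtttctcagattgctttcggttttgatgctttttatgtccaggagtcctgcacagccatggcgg

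The motifs were searched on both strands as an interferon-stimulated response element (GAAANNGAA), a gamma-activated site bound by STAT dimers (TTCNNNGAA) and a κB site (GGANTTTCC). These letters occur in 8.56%, 8.3% and 1.25% of all 32851 promoter windows of the RefSeq table. None of the 3 was found in the *Casp1* or *Casp4* window, while the *Casp12* window held the gamma-activated letters at 2 positions, 102 and 36 bases before the start. A wider, degenerate NF-κB pattern, chosen after the *Casp4* sequence was seen, occurs in 5.8% of all windows. It matched the *Casp4* window at GGGGATTTCC and the overlapping GGGATTTCCC, 93 and 92 bases before the start, and at GGAAGTCCCC on the other strand, 39 bases before the start. A match is a string of letters and not evidence that a factor binds there.

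Of the 9 genes, 7 had an entry in the promoter table, in 9 windows, because *Casp4* and *Ripk1* each have 2 starts. *Zbp1* and *Gsdmd* had none. Outside the caspase cluster, matches were found only in *Ripk3* and at the second *Ripk1* start, and these are shown because neither gene had a higher level in 3W-PSCs. The *Ripk3* window (chr14:55788808-55789107, minus strand) held the interferon-stimulated letters 14 bases after the start. The *Ripk1* window (chr13:34002624-34002923, plus strand) held them 5 bases before the start, overlapping the second of its gamma-activated matches, which lie 108 and 11 bases before the start.
Ripk3: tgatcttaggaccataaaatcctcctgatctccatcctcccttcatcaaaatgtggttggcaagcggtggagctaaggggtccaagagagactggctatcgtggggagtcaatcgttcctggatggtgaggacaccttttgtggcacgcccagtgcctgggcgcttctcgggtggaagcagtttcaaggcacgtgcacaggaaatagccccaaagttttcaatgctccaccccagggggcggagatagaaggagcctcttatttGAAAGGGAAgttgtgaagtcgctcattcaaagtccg
Ripk1: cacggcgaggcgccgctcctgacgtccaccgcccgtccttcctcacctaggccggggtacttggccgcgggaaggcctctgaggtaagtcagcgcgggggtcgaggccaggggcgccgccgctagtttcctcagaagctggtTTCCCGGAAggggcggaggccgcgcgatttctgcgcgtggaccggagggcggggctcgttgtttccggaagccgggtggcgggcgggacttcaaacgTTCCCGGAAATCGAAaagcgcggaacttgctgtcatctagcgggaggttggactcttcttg
The windows of *Casp8* and *Mlkl* and the first *Ripk1* window held no match. 

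*Casp4*, the mouse gene for the caspase that senses cytosolic lipopolysaccharide, had 12, 22, 7 and 5 counts in mono-PSC replicates 1 to 4. It had 24, 29, 23 and 37 counts in 2W-PSCs. It had 602, 619, 387 and 481 counts in 3W-PSCs. The 3W-PSC libraries all lay far above the others, while 1 mono-PSC library lay within the range of 2W-PSCs on the CPM scale. In CPM the means were 2.08 ± 1.64 in mono-PSCs, 5.01 ± 1.81 in 2W-PSCs and 65.9 ± 13.2 in 3W-PSCs (SD, n = 4 each). The fitted difference from mono-PSCs to 3W-PSCs was 33.6-fold (log2 fold change 5.07, SE 0.361). On the log2 scale it was 5.69 without mono-PSC replicate 2 and 4.69 without mono-PSC replicate 4. From 2W-PSCs to 3W-PSCs it was 13.3-fold (3.74, SE 0.286). From mono-PSCs to 2W-PSCs it was 1.31 (SE 0.594) on the log2 scale, with overlapping libraries. The comparisons share libraries and are not independent of each other.

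*Casp12*, whose product is associated with the endoplasmic reticulum in mice, had a higher level in mono-PSCs and a smaller difference. Its levels were 36.9, 40.2, 51.5 and 34.3 CPM in mono-PSC replicates 1 to 4. They were 69.1, 43.0, 83.2 and 52.4 CPM in 2W-PSCs and 87.4, 85.1, 83.2 and 76.7 CPM in 3W-PSCs. The 2W-PSC libraries were spread across the range of the other cultures and overlapped both. The means were 40.7 ± 7.59, 61.9 ± 17.8 and 83.1 ± 4.62 CPM (SD, n = 4). The difference of 3W-PSCs from mono-PSCs was 2.04-fold (log2 1.03, SE 0.162), from 2W-PSCs 0.42 (SE 0.204) on the log2 scale. The order mono-PSCs, 2W-PSCs, 3W-PSCs thus held in the means, but only its ends did not overlap.

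The pair changed unequally within the same libraries. The ratio of *Casp4* to *Casp12* counts was 0.0175 to 0.108 in mono-PSCs and 0.0439 to 0.166 in 2W-PSCs, but 0.592 to 0.915 in 3W-PSCs. In 3W-PSCs *Casp4* was therefore closer to the count of its neighbour than in the other cultures, without passing it in any library.

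*Casp1*, which encodes the caspase of the canonical inflammasome, had 0 counts in all 4 mono-PSC and all 4 2W-PSC libraries. In 3W-PSC replicates 1 to 4 it had 2, 0, 3 and 5 counts. The 0 of 24664093 counts in mono-PSCs allows up to 0.122 CPM (unscaled) by the limit of 3 counts and 0.150 as the upper end of an exact Poisson 95% interval. The 0 of 24333063 in 2W-PSCs allows up to 0.123 and 0.152. The 10 of 30582727 counts in 3W-PSCs correspond to 0.327 CPM (exact Poisson 95% interval 0.157 to 0.601). The counts include PCR copies, since no molecular identifiers are named, and these limits cover counting error only. *Casp1* had too few counts to be fitted and no fold is given. Its highest count was in 3W-PSC replicate 4, the library with the highest macrophage marker sum (52.5 CPM), and its 0 was in replicate 2, the 3W-PSC library with the lowest (13.0 CPM). Macrophages express *Casp1*, and the part of these reads that came from MØs was not tested.

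*Gsdmd* (ENSMUSG00000022575, chr15:75862327-75867408), whose product is cut by both inflammatory caspases, was present in all cultures. Its levels were 24.2, 25.2, 27.4 and 23.6 CPM in mono-PSCs and 25.1, 23.1, 23.0 and 27 CPM in 2W-PSCs. In 3W-PSCs they were 41.4, 31.3, 28.1 and 37.7 CPM. Every 3W-PSC library was above every library of the other cultures, but the margin was small for replicate 3. The log2 difference was 0.46 (SE 0.182) from mono-PSCs and 0.49 (SE 0.188) from 2W-PSCs, and -0.0068 (SE 0.202) between these. Neither 3W-PSC difference passed the threshold of the fit, while without 3W-PSC replicate 3 that from mono-PSCs, 0.55, did. Without 3W-PSC replicate 1 the difference from mono-PSCs was 0.36 and did not pass.

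**Figure D1:**
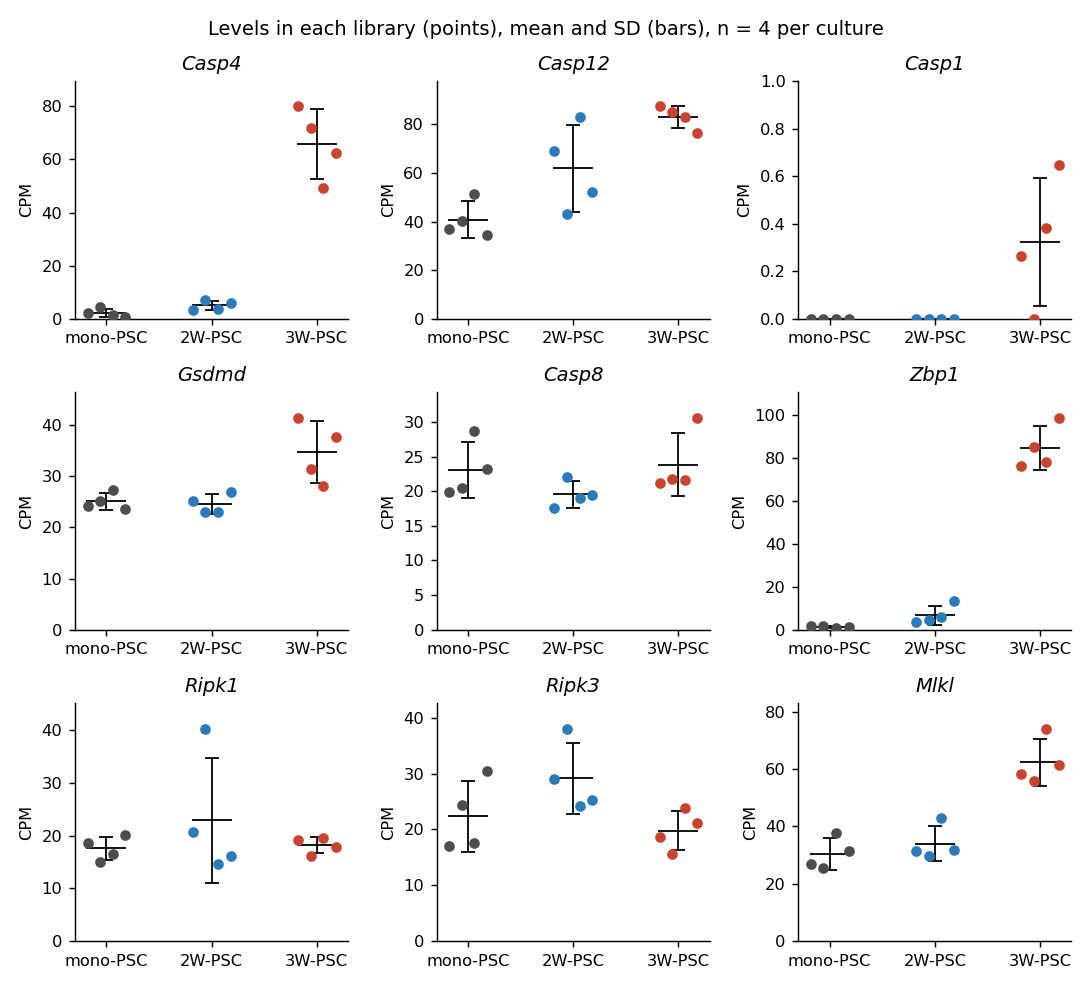
Levels of the 9 genes in CPM (vertical axis, from 0, with its own scale for each gene) in each library of mono-PSCs, 2W-PSCs and 3W-PSCs. Points are libraries, and bars are the mean and SD of 4. *Casp4* and *Zbp1* in 3W-PSCs sit between 49.2 and 98.7 CPM, with all other libraries at 13.3 CPM or less, while *Casp8* and *Ripk1* overlap across cultures.

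The other genes of the inflammasome route were mostly at low counts. *Nlrp3*, the sensor of the best known inflammasome, had 0 counts in mono-PSCs and 2W-PSCs and 1 to 12 counts in 3W-PSCs. *Pycard*, the adaptor that links sensors to caspase-1, had at most 4 counts in any library, and *Nlrc4*, another sensor, at most 8. *Aim2*, the sensor of cytosolic DNA, had 0 to 14 counts in mono-PSCs and, in the co-cultures, 12 to 25 (2W-PSCs) and 14 to 25 (3W-PSCs), all but 1 of the mono-PSC libraries being at 0. Its log2 difference from mono-PSCs was 2.28 (SE 1.07) in 2W-PSCs and 1.98 (SE 0.912) in 3W-PSCs, neither called, the latter with an unadjusted p under 0.05. *Il1b* had no count in any library, and *Il18*, the second interleukin precursor that caspase-1 cuts, had 9 to 50 counts. Of the 13 sensor and adaptor genes listed, 2 had enough counts to be fitted in 3W-PSCs against 2W-PSCs, *Aim2* and *Nek7*, and edgeR called 0 in either direction, with *Nek7* at an unadjusted p under 0.05 on the lower side. Of 6 genes of caspase-1 substrates, other gasdermins and membrane rupture in the table, 3 were fitted (*Il18*, *Ninj1* and *Dfna5*) and 0 were called, also at an unadjusted p under 0.05. Their medians were -0.37 and 0.17 on the log2 scale, beside 0.0025 over all 11513 genes. Genes near 0 were not fitted, among them *Nlrp3*, whose 3W-PSC libraries all lay above the 0 of the other cultures. *Casp4* and *Gsdmd* were thus measured at 28.1 CPM or more in every 3W-PSC library, alongside single-digit or no counts of *Casp1*, *Pycard* and *Il1b*.

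**Figure D2:**
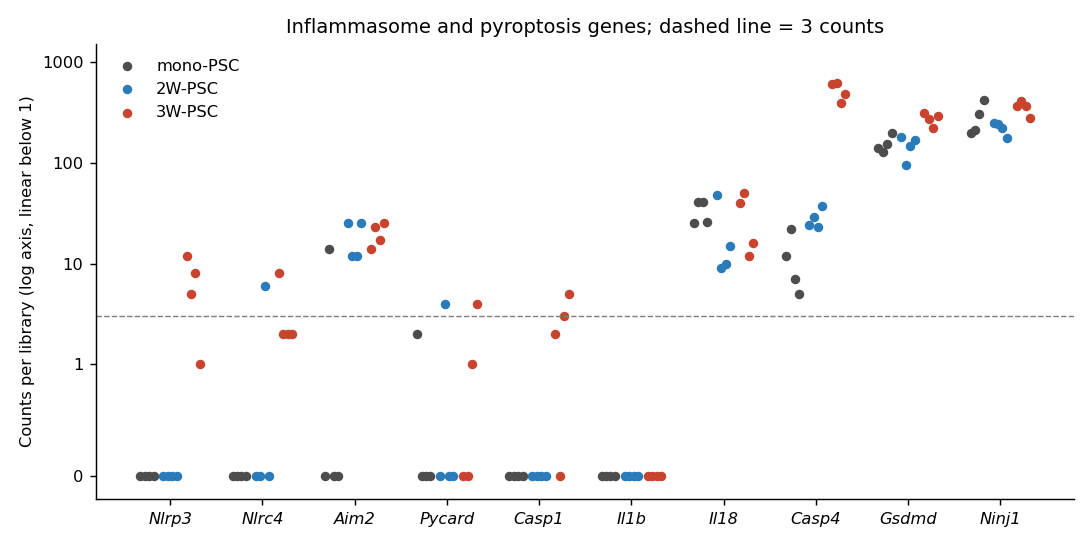
Counts per library (vertical axis, log scale above 1 and linear below) of 10 genes of the inflammasome and pyroptosis route in mono-PSCs, 2W-PSCs and 3W-PSCs, each point being a library and the dashed line 3 counts. *Casp4* moves from 5 to 37 counts in the other cultures to 387 to 619 in 3W-PSCs, whereas *Il1b* stays at 0 in all 12 libraries and *Pycard* at 4 or fewer.

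*Zbp1* (ENSMUSG00000027514, chr2:173206612-173218923, minus strand), the sensor that feeds into RIPK3, had the largest difference of the 8 fitted genes from mono-PSCs, while *Casp4* had the larger difference of 3W-PSCs from 2W-PSCs. It had 9, 9, 5 and 10 counts in mono-PSC replicates 1 to 4 and 25, 19, 37 and 83 counts in 2W-PSCs. In 3W-PSCs it had 572, 734, 612 and 761 counts. No libraries of different cultures overlapped, so that every 2W-PSC library lay between the other cultures. The means were 1.36 ± 0.391, 6.82 ± 4.40 and 84.4 ± 10.3 CPM (SD, n = 4). The fitted differences were 5.06-fold from mono-PSCs to 2W-PSCs (log2 2.34, SE 0.535), 12.3-fold from 2W-PSCs to 3W-PSCs (3.61, SE 0.361) and 61.8-fold from mono-PSCs to 3W-PSCs (5.95, SE 0.239). Of all genes fitted, 0.571% had a larger absolute log2 difference between 3W-PSCs and mono-PSCs than *Zbp1*, and 0.762% than *Casp4*. The 2W-PSC mean was raised by replicate 4, at 13.3 CPM, against 3.50 to 5.87 CPM in the others. The difference of 2W-PSCs from mono-PSCs did not pass the threshold of the fit, but did without 2W-PSC replicate 2, where it was 2.47. Without 2W-PSC replicate 4 it was 1.79, and of the 8 fits with 1 library left out only 1 passed. Epithelial markers, given above, also differed between these cultures, and the part of PCC RNA in the *Zbp1* reads of 2W-PSCs was not tested.

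*Ripk3* (ENSMUSG00000022221, chr14:55784995-55788865, minus strand), the kinase that ZBP1 recruits, did not follow it. Its levels were 17.0, 24.4, 17.6 and 30.5 CPM in mono-PSCs, 29, 38.1, 24.3 and 25.2 CPM in 2W-PSCs and 18.6, 15.6, 23.9 and 21.1 CPM in 3W-PSCs. The 3W-PSC libraries lay within the range of mono-PSCs or just under it and below every 2W-PSC library, the nearest being 23.9 and 24.3 CPM. The log2 difference was -0.19 (SE 0.230) from mono-PSCs and -0.56 (SE 0.220) from 2W-PSCs, and the latter was -0.41 without 2W-PSC replicate 2. Neither passed the threshold of the fit.

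*Mlkl* (ENSMUSG00000012519, chr8:111311797-111338177, minus strand), the executioner that RIPK3 phosphorylates, had 26.8, 25.4, 37.8 and 31.5 CPM in mono-PSCs and 31.4, 29.5, 43.0 and 31.8 CPM in 2W-PSCs. In 3W-PSCs it had 58.2, 55.8, 74.0 and 61.2 CPM. All 3W-PSC libraries were above all others, which overlapped between mono-PSCs and 2W-PSCs. The difference was 2.05-fold (log2 1.03, SE 0.175) from mono-PSCs and 1.83-fold (0.87, SE 0.183) from 2W-PSCs. Between mono-PSCs and 2W-PSCs it was 0.18 (SE 0.222) on the log2 scale. Without 2W-PSC replicate 3, the highest of its culture, the differences of 2W-PSCs from mono-PSCs and of 3W-PSCs from 2W-PSCs were 0.042 and 1.004.

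Within a library, *Zbp1*, *Ripk3* and *Mlkl* shifted relative to each other. The ratio of *Zbp1* to *Ripk3* counts was 0.0394 to 0.0918 in mono-PSCs, 0.121 to 0.525 in 2W-PSCs but 3.26 to 5.48 in 3W-PSCs. In 3W-PSCs alone the sensor had more counts than the kinase, in all 4 libraries. The ratio of *Mlkl* to *Ripk3* counts was 1.03 to 2.14, 0.774 to 1.77 and 2.90 to 3.59 in the same order. These ratios need no scaling between libraries and separated 3W-PSCs from both other cultures without overlap.

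*Ripk1* (ENSMUSG00000021408, chr13:34002363-34037147), the scaffold kinase of the death receptor complex, had 18.6, 15.1, 16.6 and 20.1 CPM in mono-PSCs. It had 20.6, 40.3, 14.6 and 16.1 CPM in 2W-PSCs and 19.1, 16.1, 19.5 and 17.8 CPM in 3W-PSCs. Apart from 2W-PSC replicate 2, all libraries lay within 14.6 to 20.6 CPM. The log2 difference of 2W-PSCs from mono-PSCs was 0.39 (SE 0.325) and became -0.029 without that library, and that of 3W-PSCs from 2W-PSCs went from -0.33 (SE 0.307) to 0.077. The value from mono-PSCs to 3W-PSCs was 0.03 (SE 0.201). Exons of *Ripk1* overlap *Serpinb6a* on the other strand over 241 bases, far from the 3′ end and with the strand setting of the counting not given, and *Gm17084* on the same strand over 511 bases, 2111 bases from the 3′ end. *Gm17084* had at most 6 counts in a library.

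*Casp8* (ENSMUSG00000026029, chr1:58795374-58847503), the initiator caspase that holds necroptosis back, had 19.8, 20.4, 28.6 and 23.2 CPM in mono-PSCs. It had 17.5, 22.1, 19.0 and 19.5 CPM in 2W-PSCs and 21.1, 21.8, 21.6 and 30.6 CPM in 3W-PSCs. The cultures overlapped. The log2 differences were -0.21 (SE 0.227) for 2W-PSCs and 0.04 (SE 0.204) for 3W-PSCs from mono-PSCs, and 0.28 (SE 0.201) for 3W-PSCs from 2W-PSCs. Without 3W-PSC replicate 4 the last 2 were -0.10 and 0.14. Of the 75-base windows at the 3′ end of *Casp8*, 5.15% also occur in *Gm20257*, and the reads of these windows could not be assigned to 1 gene by sequence. Against this level background, the ratio of *Casp4* to *Casp8* counts was 0.0259 to 0.214 in mono-PSCs, 0.192 to 0.322 in 2W-PSCs but 2.04 to 3.79 in 3W-PSCs.

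**Figure D3:**
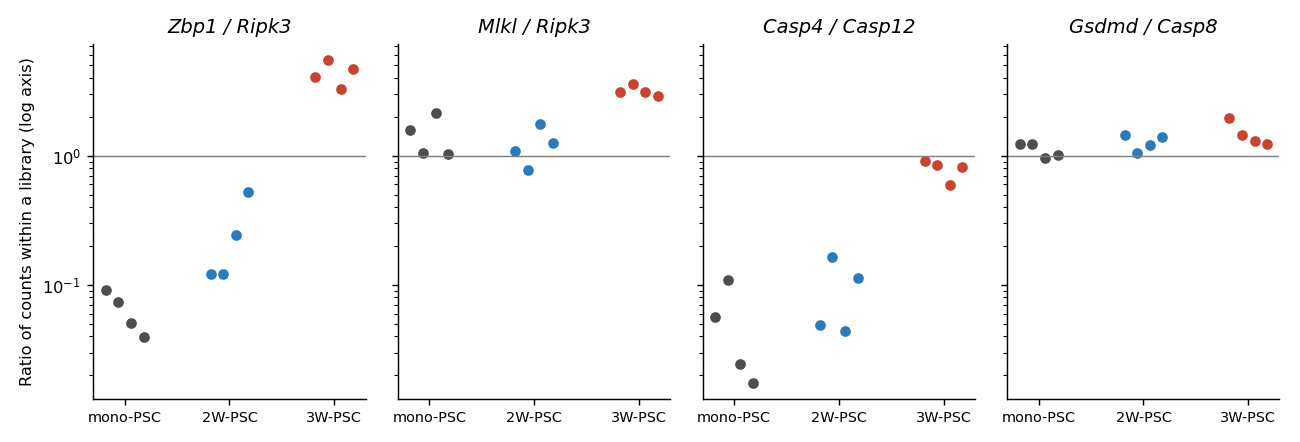
Ratios of counts within each library (vertical axis, log scale; the grey line is a ratio of 1) for 4 pairs of the genes in mono-PSCs, 2W-PSCs and 3W-PSCs, each point being a library. *Zbp1* to *Ripk3* lies above 1 in 3W-PSCs alone (3.26 to 5.48), *Casp4* to *Casp12* reaches 0.592 to 0.915, and *Gsdmd* to *Casp8* overlaps across cultures.

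Set beside all genes, the 9 divided as follows. *Casp1* was not fitted. Of the other 8, 0 were called higher and 0 lower in 2W-PSCs against mono-PSCs at an adjusted p under 0.05 (edgeR quasi-likelihood test, Benjamini-Hochberg over all genes), where 0.839% of 11199 genes were called higher. DESeq2 called 1 of the 8, *Zbp1*, among 275 genes in all (229 higher and 46 lower). At an unadjusted p under 0.05 in edgeR there were 3 of the 8, and the share of all genes at that threshold is not given here. *Zbp1* alone had all its 2W-PSC libraries above all mono-PSC libraries, as had 3.23% of these genes. In 3W-PSCs against mono-PSCs, 4 were called higher (*Casp4*, *Casp12*, *Zbp1* and *Mlkl*), where 13.4% of 11551 genes were, and 0 were called lower, where 13.0% were. With *Gsdmd*, 5 did not overlap on the higher side, as did 13.9% of genes. In 3W-PSCs against 2W-PSCs, 3 were called higher (*Casp4*, *Zbp1* and *Mlkl*), where 5.73% of 11513 genes were, and 0 were called lower, where 4.95% were. With *Gsdmd*, 4 did not overlap on the higher side, as did 11.6% of genes, and *Ripk3* did not overlap on the lower side, as did 9.72%. The medians of the 8 log2 differences were 0.40, 0.75 and 0.46 in these comparisons, beside 0.020, 0.012 and 0.0025 over all genes. Since the genes were chosen with these levels known, nothing is read from the counts.

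**Figure D4:**
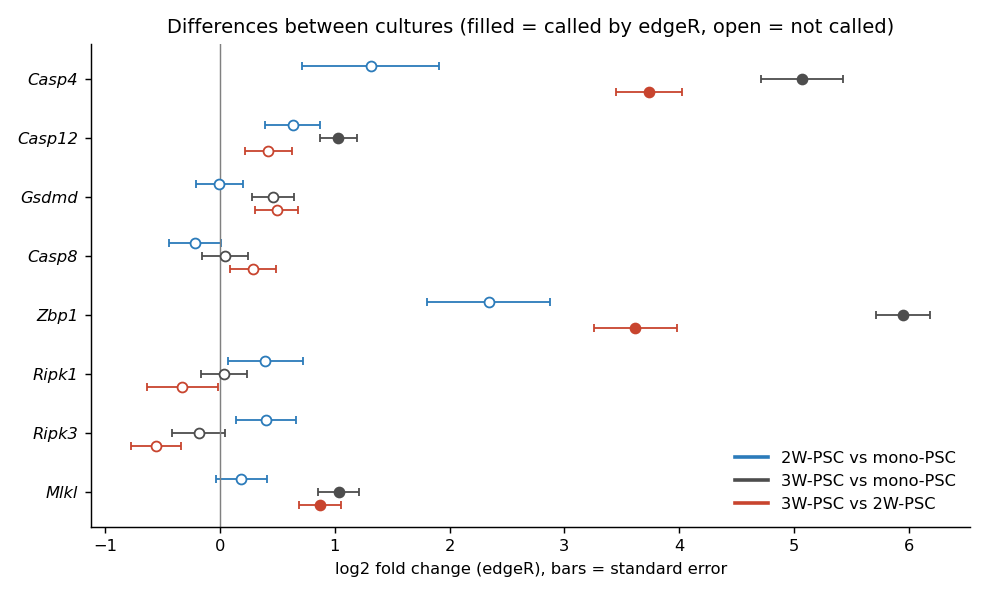
Log2 fold changes from the fit (horizontal axis) of the 8 genes with enough counts, in the 3 comparisons of cultures, with bars for 1 standard error. Filled points were called and open points were not. *Zbp1* and *Casp4* lie at 3.61 to 5.95 in both comparisons of 3W-PSCs, *Mlkl* near 1, and *Ripk1* and *Casp8* between -0.33 and 0.39.

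As a sum, macrophage markers were higher in the 3W-PSC libraries, and the members are given beside them. Their summed level was 18.9, 13.0, 15.5 and 52.5 CPM in 3W-PSC replicates 1 to 4. In replicate 4, *Laptm5* had 75 counts, *Tyrobp* 22 and *Ptprc* 20, against 1 to 6, 0 to 4 and 0 to 6 in the others. *Zbp1*, *Casp8* and *Casp1* were highest in replicate 4, *Casp4* and *Gsdmd* in replicate 1, *Casp12* in replicate 1 and *Mlkl* and *Ripk3* in replicate 3. Without replicate 4, the log2 difference of 3W-PSCs from 2W-PSCs was 3.53 for *Zbp1*, 3.76 for *Casp4* and 0.88 for *Mlkl*, beside 3.61, 3.74 and 0.87 with it. How much *Zbp1* or *Casp4* RNA the MØs hold was not measured in these libraries, and their part in the 3W-PSC levels was not tested. Of the 4 markers with enough counts to be fitted, 1 was called higher in 3W-PSCs against 2W-PSCs and 2 against mono-PSCs. Of all genes fitted, 5.73% and 13.4% were.

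**Figure D5:**
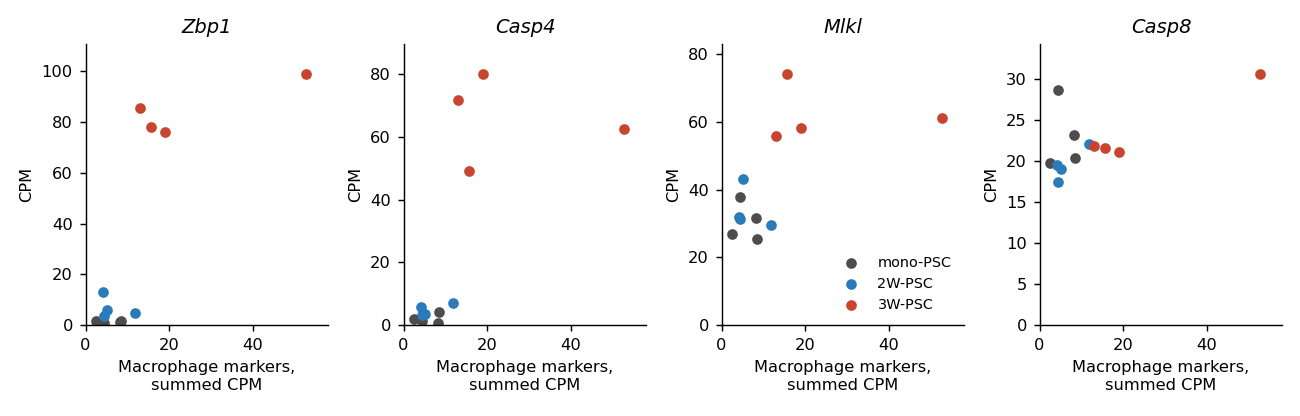
Levels of *Zbp1*, *Casp4*, *Mlkl* and *Casp8* (vertical axes, CPM) against the summed level of 12 macrophage markers (horizontal axes, CPM) in each library, coloured by culture. 3W-PSC replicate 4 lies alone at 52.5 CPM of markers, and the other 3W-PSC libraries, at 13.0 to 18.9 CPM, have 49.2 to 85.2 CPM of *Casp4* and *Zbp1*.

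The other genes of these pathways were counted by function. Their lists were also chosen with earlier results of these data known, so the counts and p-values below are a description. Of 84 genes in the table, 61 were fitted in 3W-PSCs against 2W-PSCs. Of these, 17 were called higher and 2 lower, where 5.73% and 4.95% of all 11513 genes were, with a median log2 difference of 0.34. Against mono-PSCs, 24 of 61 were called higher and 2 lower, where 13.4% and 13.0% of all 11551 genes were, with a median of 0.41. These shares of all genes also stand beside the counts per list below. In 2W-PSCs against mono-PSCs, 1 of 57 was called higher and 0 lower, where 94 and 17 of all 11199 genes were, with a median of 0.02. That gene was *Tnfrsf1b*, a receptor for tumour necrosis factor (log2 1.25, adjusted p = 0.0143), and its call was lost without 2W-PSC replicate 1 or 4 or mono-PSC replicate 2, 3 or 4.

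Among death receptors and their ligands, the receptors differed and the ligands were near 0. All 4 fitted genes passed on the higher side for 3W-PSCs against mono-PSCs, and *Fas* and *Tnfrsf1a* also against 2W-PSCs. *Fas*, the receptor that assembles the caspase-8 complex directly, was at 3.50 ± 1.45, 5.43 ± 3.08 and 24.9 ± 4.23 CPM (SD, n = 4) in mono-PSCs, 2W-PSCs and 3W-PSCs, a log2 difference of 2.16 from 2W-PSCs (SE 0.381, adjusted p = 0.00538). *Tnf* had 0 counts in mono-PSCs and 2W-PSCs and at most 4 in 3W-PSCs, *Fasl* had none, and *Tnfsf10* had at most 8.

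Of the 17 fitted genes of the RIPK1 and caspase-8 complex, 6 were called higher and 0 lower for 3W-PSCs against 2W-PSCs, with a median log2 difference of 0.50. They were *Tnfaip3*, *Birc3*, *Rnf31*, *Tnip1*, *Cflar* and *Cyld*, which handle ubiquitin chains or, for *Cflar*, restrain caspase-8. *Tnfaip3*, the ubiquitin-editing enzyme A20, was at 1.08 ± 0.781, 1.53 ± 1.04 and 24.3 ± 13.9 CPM, a log2 difference of 3.91 from 2W-PSCs (SE 0.531, adjusted p = 0.00115). *Tnip1*, which binds it, was at 45.4 ± 6.01, 54.8 ± 26.4 and 155 ± 24.8 CPM (1.51, SE 0.298, adjusted p = 0.00937). *Birc3*, a ubiquitin ligase acting on RIPK1, had a log2 difference of 2.82 (adjusted p = 0.0165). *Rnf31*, a subunit of the linear ubiquitin ligase, had 2.19 (adjusted p = 0.0483) at only 4.11 ± 1.49 CPM in 3W-PSCs. *Ripk1* and *Casp8*, the core of that complex, had the overlapping levels given above.

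Of the 4 genes that feed RHIM signalling or limit Z-form RNA, *Tlr3* and *Adar* passed on the higher side for 3W-PSCs against either other culture, and *Tlr4* and *Ticam1* were not called. *Tlr3*, a receptor for double-stranded RNA, was at 9.31 ± 1.68, 12.7 ± 5.70 and 34.1 ± 1.85 CPM, a log2 difference of 1.44 from 2W-PSCs (SE 0.290, adjusted p = 0.0106). *Adar*, whose interferon-induced isoform edits double-stranded RNA and keeps ZBP1 from being triggered, was at 25.3 ± 7.16, 28.5 ± 7.73 and 64.6 ± 3.79 CPM (1.17, SE 0.215, adjusted p = 0.00630). The sensor *Zbp1* and its known brake *Adar* were thus both higher in 3W-PSCs.

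Interferon signal transduction genes were called higher in 8 of 10 cases in 3W-PSCs against mono-PSCs and in 4 of 10 against 2W-PSCs, with medians of 0.93 and 0.74. *Stat2* was at 48.6 ± 19.6, 68.7 ± 7.82 and 157 ± 16.4 CPM, a log2 difference of 1.19 from 2W-PSCs (adjusted p = 0.000936). *Ifnar2*, a chain of the type I interferon receptor, differed by 1.09 (adjusted p = 0.00199) and *Irf1* by 1.11 (adjusted p = 0.0262).

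Of the apoptotic caspases and their regulators, *Apaf1* and *Bid* were called higher for 3W-PSCs against 2W-PSCs. *Apaf1*, the scaffold of the apoptosome, was at 12.5 ± 8.18, 8.84 ± 3.12 and 28.3 ± 6.64 CPM, a log2 difference of 1.66 (adjusted p = 0.00542). Of 9 fitted BCL2 family genes, the pro-apoptotic *Bcl2l11* was called higher (1.32, adjusted p = 0.00122) and the pro-apoptotic *Bad* lower (-0.83, adjusted p = 0.0496).

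Of the 19 pathway genes called in 3W-PSCs against 2W-PSCs, 10 kept the call whichever library was left out, among them *Fas*, *Tnfaip3*, *Tnip1*, *Tlr3*, *Adar*, *Apaf1*, *Bcl2l11*, *Stat2* and *Ifnar2*. *Tnfrsf1a*, *Birc3*, *Rnf31*, *Cflar*, *Cyld*, *Bid*, *Bad* and *Irf1* were among those that lost it without 3W-PSC replicate 1 and also without 3W-PSC replicate 2, leaving 10 called in each case. Without 3W-PSC replicate 4 or 2W-PSC replicate 4, 11 were called, and without 2W-PSC replicate 2, 25 were.

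The genes whose log2 CPM followed each member most closely over the 12 libraries are given by Pearson's r as a description, since the points share cultures and libraries. For *Zbp1* they were *Ddx60* (r = 0.984), *Trim30a* (0.983) and *Parp14* (0.982). For *Casp4* they were *Gm4955* (0.992), *AI607873* (0.989) and *Prrx1* (0.982). For *Mlkl* they were *Ctsb* (0.963), *Slc39a4* (0.946) and *Sdc1* (0.944), and for *Casp12* *Prss22* (0.956), *Irf5* (0.942) and *Igfbp7* (0.940). For the other members the highest r was 0.911 for *Gsdmd* (*Ubash3b*), 0.876 for *Ripk3* (*Mustn1*) and 0.791 for *Casp8* (*Dapp1*). That for *Ripk1* was 0.937 (*Gprc5a*), and it includes 2W-PSC replicate 2, in which *Ripk1* was alone at 40.3 CPM. When libraries were ranked (Spearman's rho), 0 or 1 of the 3 genes nearest to each member stayed the same.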

How the data were processed

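PSC libraries were prepared with the QuantSeq 3′ kit and sequenced by the authors, who mapped reads with STAR (GRCm38) and obtained gene counts with featureCounts. The strand setting of the counting is not given in the sources used here. The deposited table holds raw counts, whole numbers that were not normalised, although the methods speak of normalised reads. The table holds 39179 genes, of which 20802 had no count.

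The 9 genes and the lists of other pathway genes were chosen with earlier results of these data known. Counts were scaled by TMM and compared in pairs of cultures (8 libraries per fit, no block) with filterByExpr, glmQLFit and glmQLFTest of edgeR 4.0.16 in R 4.3.3, with Benjamini-Hochberg adjustment over all genes fitted and a threshold of 0.05. Fold changes use a prior count of 0.125, and an SE is the absolute log2 fold change divided by the square root of F. With nothing stated on how replicates were separated, p-values measure the spread between these libraries. The fit was first tested on simulated counts.

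Genes named with values were all 9 members, at most 4 called genes per list with the largest difference between 3W-PSCs and 2W-PSCs, list genes at or near 0 counts, and the 3 genes nearest to each member. Some genes of the lists are counted but not reported by name here. For likeness, CPM were log2-transformed with a prior count of 2. Positions are from GENCODE release M21, promoters from RefSeq on GRCm38.p6. Alternatives were DESeq2 1.42.0, its size factors in edgeR, other filters, all 12 libraries in 1 fit, a replicate block, removal of the most abundant gene, a prior count of 2 and each library left out in turn.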

Additional observations from a re-analysis of the deposited data

Results flagged for a closer look

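In 2 of 27 groups of 4 libraries (9 genes in 3 cultures), a single library lay far from the other 3 by Dixon's criterion, of which chance picks about 1 in 20. *Casp8* was at 30.6 CPM in 3W-PSC replicate 4, against 21.1 to 21.8 CPM in the other 3W-PSC libraries, a gap of 0.926 of the range. That library also had the highest macrophage marker sum, 52.5 CPM. *Mlkl* was at 43.0 CPM in 2W-PSC replicate 3, against 29.5 to 31.8 CPM in the others, and only just passed the critical value. The fold changes of both genes without these libraries are given above.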

How the results depend on the processing

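Of the 9 genes, *Casp4*, *Zbp1* and *Mlkl* were called higher for 3W-PSCs against 2W-PSCs under all 16 alternatives, with log2 differences of 3.57 to 3.93, 3.38 to 4.16 and 0.78 to 1.004. The count of the 9 called against mono-PSCs was 4, but 2 when at least 10 counts were required in every library, since *Casp4* and *Zbp1* were then not fitted, and 4 to 5 with a library left out. In 2W-PSCs against mono-PSCs it was 0, but 1 (*Zbp1*, log2 1.79 to 2.54 over 15 alternatives) without a filter, with all 12 libraries in 1 fit, with DESeq2 and without 2W-PSC replicate 2 (0 to 1 with a library left out). Over all genes, 111 were called there, 177 without a filter, 57 at 10 counts in every library, 262 with all 12 libraries, 275 with DESeq2 and 61 to 233 with a library left out, and of the pathway genes 1, 2 with DESeq2 and 0 to 2 with a library left out. In 3W-PSCs against 2W-PSCs, 497 to 2107 genes and 10 to 25 pathway genes were called with a library left out, against 1230 and 19.

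Replicate numbers were shared across cultures, but the correlation of same-numbered deviations was 0.0990 to 0.338, 0.0026 to 0.107 and -0.048 to 0.155 in 2W-PSCs against mono-PSCs, 3W-PSCs against mono-PSCs and 3W-PSCs against 2W-PSCs. Differently numbered pairs had -0.265 to 0.215, -0.124 to 0.0721 and -0.167 to 0.108. In no comparison was every same-numbered pair over 0.1, so the numbers were not taken to pair the libraries, although 3 of 4 pairs of 2W-PSCs and mono-PSCs were. With the replicate block, 752 genes (455 higher, 297 lower) were called in 3W-PSCs against 2W-PSCs, against 660 higher and 570 lower without it, while the calls of the 9 genes did not change, and 13 pathway genes were called.

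Signs turned for *Gsdmd*, *Casp8*, *Ripk3* and *Ripk1*, none of them called in the comparisons concerned. In 2W-PSCs against mono-PSCs, *Gsdmd* was 0.010 without 2W-PSC replicate 2, 0.018 without 2W-PSC replicate 3 and 0.034 without mono-PSC replicate 3, and *Ripk1* was -0.029 without 2W-PSC replicate 2. With any library left out the ranges were -0.064 to 0.034 and -0.029 to 0.55. In 3W-PSCs against mono-PSCs, *Casp8* was -0.027, -0.013 and -0.10 without mono-PSC replicate 1, mono-PSC replicate 2 and 3W-PSC replicate 4, *Ripk1* was -0.037 and -0.002 without mono-PSC replicate 2 and 3W-PSC replicate 3, and *Ripk3* was 0.0045 without mono-PSC replicate 4, in ranges of -0.10 to 0.16, -0.037 to 0.11 and -0.30 to 0.0045. In 3W-PSCs against 2W-PSCs, *Ripk1* was 0.077 without 2W-PSC replicate 2, in a range of -0.50 to 0.077. The causes were not tested. Depth limits *Casp1* and the inflammasome genes near 0, which had too few counts to be fitted.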
